A study of Mus musculus with 17 samples.

Results

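The cholesterol and fatty acid synthesis genes are 32 genes chosen by name: the sterol sensing gene Insig1 and the transcription factor genes Srebf1 and Srebf2, 14 enzymes that lead from acetoacetyl-CoA to cholesterol, and 15 enzymes that make, desaturate or lengthen fatty acids. All 32 were found by symbol among the 36293 genes of the bulk count tables, and all 32 had UMIs in the single-nucleus tables. The samples came from the cortex of C57BL/6 mice (male per the paper, substrain C57BL/6J per the Methods). They were either control mice or mice put through chronic unpredictable stress (CUS). In CUS, 3 different stressors a day were given for 12 days to mice of 9 to 10 weeks of age, with food withheld during a single night. Control mice, housed apart, received daily handling in place of stressors. Bulk nuclear RNA-seq covered punches of the medial prefrontal cortex (mPFC) of 4 control and 5 CUS mice at postnatal day 90, taken after behavioural testing, and sNucDrop-seq, which counts the RNA of single nuclei in droplets, covered the neocortex of 4 control and 4 CUS mice at postnatal day 80, 24 hours after the last stressor. Each library was from 1 mouse, and the bulk and the single-nucleus libraries came from different mice.

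Cholesterol in the brain is made locally, because the blood-brain barrier keeps lipoprotein cholesterol of the circulation out. Acetyl-CoA is built up through mevalonate to isoprenoid units, these are joined to squalene, and squalene is closed into a ring and trimmed to cholesterol. Astrocytes supply much of the cholesterol that neurons use, and oligodendrocytes make it for myelin. When sterols are scarce, the SCAP protein escorts the SREBP factors (encoded by Srebf1 and Srebf2) to the Golgi, where they are cut and released to the nucleus. INSIG1 holds them back when sterols are plentiful, and is itself an SREBP target. Fatty acids are made from the same acetyl-CoA, and desaturases and elongases turn them into the unsaturated and long chains of brain lipids.

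In bulk nuclear RNA of the mPFC, 7 of the 32 genes were lower in CUS than in control mice at a false discovery rate (FDR) under 0.05 and 0 were higher (edgeR's quasi-likelihood test, adjusted over the 18394 genes tested). Over all genes tested, 2.13% were called lower and 1.16% higher. The 7 were Hmgcs1 and Idi1 of the mevalonate arm, Sqle, Cyp51 and Msmo1 of the steps from squalene to cholesterol, the desaturase gene Fads2 and the elongase gene Elovl5, with fitted falls of 21.2% (Fads2) to 36.4% (Idi1). The log2 fold change (CUS minus control) was below 0 for 26 of the 32, against 48.7% of all genes, and its median was −0.19, against 0.0060 over all genes. All 14 sterol enzymes were below 0, with a median of −0.29, and 5 of them passed the FDR. Of the 15 fatty acid enzymes 10 were below 0 and 2 passed. Unadjusted p-values were under 0.05 for 18 of the 32 genes, all of them lower, while 11.4% of all genes were lower at that level.

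In 7 of the 32 genes every CUS mouse was below every control mouse (Hmgcs1, Mvk, Sqle, Cyp51, Msmo1, Fads2 and Elovl5), and in 0 every CUS mouse was above, whereas 4.7% of all genes were lower without overlap and 4.06% higher. Which genes passed the FDR rested on single mice. Leaving out control replicate 2, or CUS replicate 5, left 1 of the 32 past the FDR (Elovl5), while calls of lower genes over the whole table went from 392 to 108 and 103. The likelihood ratio test of edgeR and DESeq2 each called 11 of the 32 lower and 0 higher, adding Insig1, Mvk, Scd1 and Scd2. Over all genes the likelihood ratio test called 4.33% lower and 2.9% higher, and DESeq2 4.67% and 3.01%. The number of genes below 0 stayed between 25 and 27 of 32 under every alternative run.

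**Figure D1:**
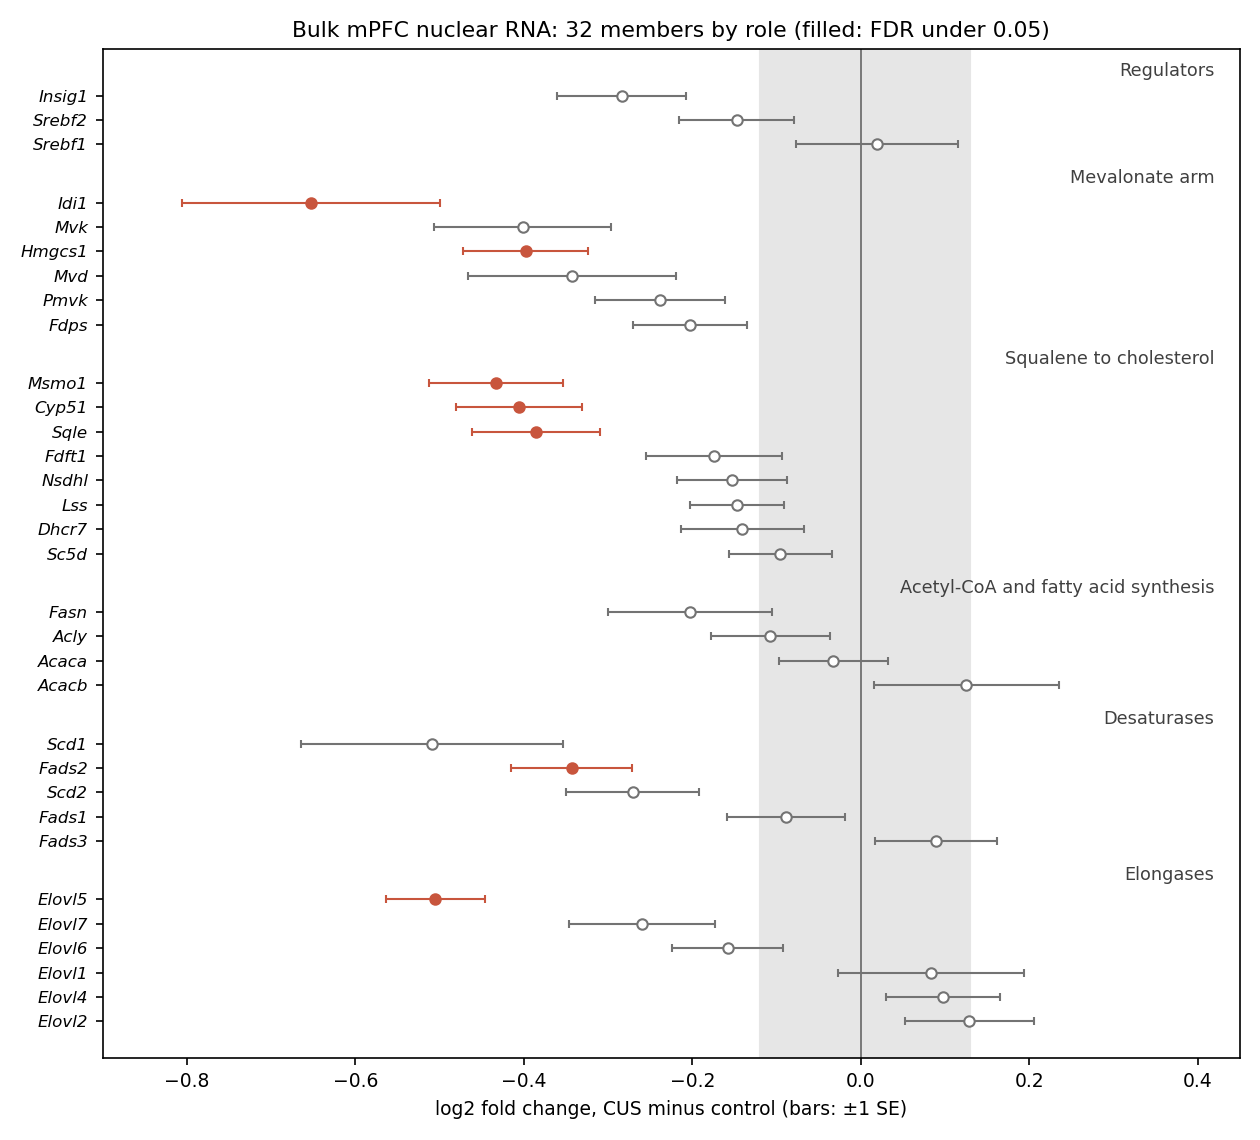
Bulk mPFC nuclear RNA: log2 fold change (CUS minus control) of each of the 32 genes, grouped by role, with bars of ±1 SE. Filled points passed an FDR of 0.05 and the grey band spans the lower to the upper quartile of all genes tested (−0.12 to 0.13). All 14 sterol enzymes lie left of 0, and the 6 genes to the right of 0 are Srebf1, Acacb, Fads3, Elovl1, Elovl2 and Elovl4.

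Genes of sterol and fatty acid synthesis, not only those called here, are known targets of SREBP factors, which act at promoters together with NF-Y. The promoter sequences are shown for those of the 7 genes lower in bulk that had an entry. Whether these factors had a part in the lower levels was not tested. RefSeq promoters (GRCm38.p6, 250 bases before to 50 bases after the start) were matched by symbol for 26 of the 32 genes, and Fdps, Sqle, Fdft1, Scd1, Scd2 and Fads1 had no entry. The start is that of the RefSeq promoter entry, which can differ from the gene boundary in the bulk counts. Against the gene intervals given below, the 150 bases printed for Msmo1 lie wholly inside the gene. Those of Idi1, Cyp51 and Elovl5 overlap their genes in part. The 150 bases before the start lie at chr13:119690201-119690350 (plus strand, Hmgcs1), chr13:8885456-8885605 (plus strand, Idi1), chr5:4104698-4104847 (minus strand, Cyp51), chr8:64733579-64733728 (minus strand, Msmo1), chr9:77917215-77917364 (plus strand, Elovl5) and chr19:10101504-10101653 (minus strand, Fads2). They are written 5′ to 3′ on the gene's strand, and capitals mark the sterol regulatory element core TCACNCCAC and the NF-Y box CCAAT, which reads ATTGG where it lies on the other strand.
Hmgcs1: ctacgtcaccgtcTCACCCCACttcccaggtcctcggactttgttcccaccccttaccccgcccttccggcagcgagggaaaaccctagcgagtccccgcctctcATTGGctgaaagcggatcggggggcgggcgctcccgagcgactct
Idi1: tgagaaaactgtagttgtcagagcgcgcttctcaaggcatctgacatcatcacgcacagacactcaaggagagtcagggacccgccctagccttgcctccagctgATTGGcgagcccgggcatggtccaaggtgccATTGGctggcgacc
Cyp51: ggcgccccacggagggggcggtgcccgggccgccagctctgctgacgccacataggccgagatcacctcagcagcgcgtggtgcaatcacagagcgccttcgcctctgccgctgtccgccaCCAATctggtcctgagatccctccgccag
Msmo1: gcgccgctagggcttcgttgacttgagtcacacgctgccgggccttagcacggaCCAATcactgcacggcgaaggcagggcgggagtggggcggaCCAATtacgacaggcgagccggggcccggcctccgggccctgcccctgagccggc
Elovl5: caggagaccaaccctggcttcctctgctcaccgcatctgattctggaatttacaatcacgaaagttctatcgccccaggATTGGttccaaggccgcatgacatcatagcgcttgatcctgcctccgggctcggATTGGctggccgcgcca
Fads2: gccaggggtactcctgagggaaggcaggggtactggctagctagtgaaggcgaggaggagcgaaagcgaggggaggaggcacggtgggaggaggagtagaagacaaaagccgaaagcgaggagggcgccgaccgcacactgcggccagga
The promoter of Hmgcs1, which encodes the synthase that makes HMG-CoA, holds TCACCCCAC starting 137 bases and an inverted CCAAT box 45 bases before the start. Idi1 has 2 inverted boxes (45 and 14 bases), Msmo1 has 2 boxes (96 and 55 bases), Elovl5 has 2 inverted boxes (71 and 17 bases) and Cyp51 has 1 box (29 bases). None of the motifs shown overlap, and neither motif occurs in the Fads2 promoter. Over the whole windows and both strands, CCAAT was present in 21 of 26 promoters of the set (80.8%), against 41.1% of the promoters of 27025 genes. It was present in all 11 sterol enzymes with an entry and in 7 of 12 fatty acid enzymes. Of the 6 genes called in bulk that had an entry, 5 held it, a share close to that of the whole set. TCACNCCAC was present in 1 of 26 (Hmgcs1), against 1.44% of all genes, and the E-box CACGTG in 5 of 26 (19.2%), against 8.09%. These letter matches describe the windows and were not tested.

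**Figure D2:**
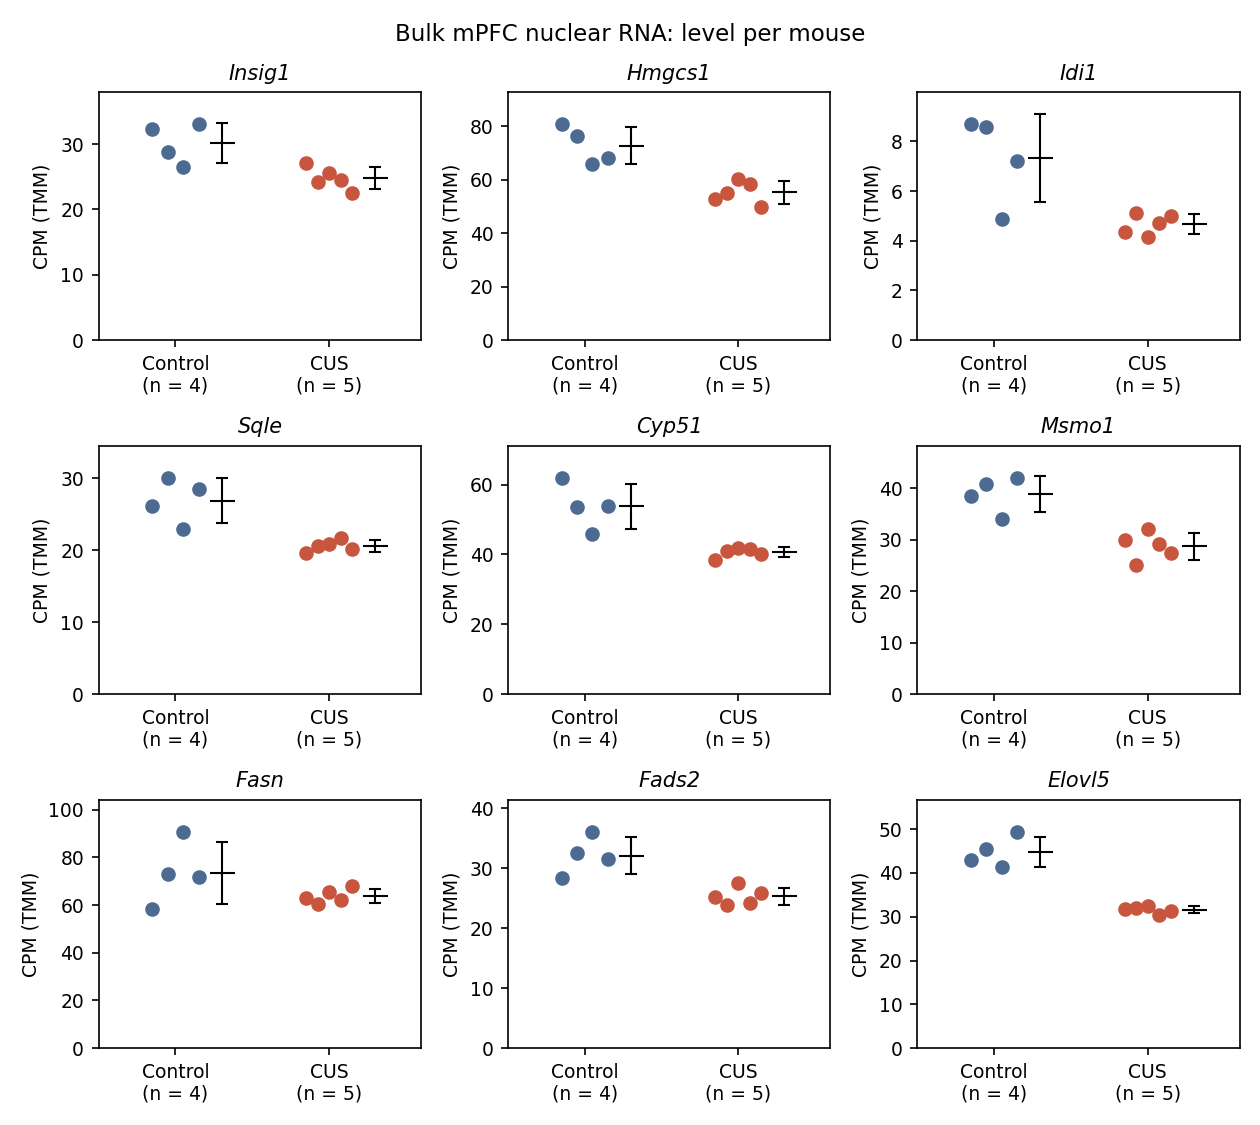
Bulk level (CPM, the reads of a gene per 1000000 reads of tested genes after TMM scaling, linear axis from 0) of the 7 genes past the FDR and of Insig1 and Fasn in each of 4 control and 5 CUS mice. Points are mice and bars are the mean ± SD. In Elovl5 the control mice lie between 41.4 and 49.2 CPM and the CUS mice between 30.4 and 32.5 CPM, and in Idi1 control replicate 3 lies among the CUS mice.

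Of the 3 regulators, none passed the FDR in bulk. Insig1 (chr5:28071363-28078662, plus strand, mm10), which encodes the protein that retains SCAP and SREBP in the endoplasmic reticulum, was at 32.4, 28.8, 26.5 and 33.0 CPM in control replicates 1 to 4 and at 27.1, 24.2, 25.5, 24.6 and 22.5 CPM in CUS replicates 1 to 5. Most control mice lay above all CUS mice, but control replicate 3 lay below CUS replicate 1. The log2 fold change was −0.28 (SE 0.076, edgeR FDR 0.0612). Srebf2, the factor gene tied most closely to sterol synthesis, ranged from 97.4 to 122 CPM in control and 91.0 to 105 CPM in CUS mice, with a log2 fold change of −0.15 (SE 0.069, FDR 0.234). Srebf1, which acts more on fatty acid genes, had a log2 fold change of 0.019 (SE 0.097, FDR 0.936), and its groups overlapped over almost their whole range.

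The mevalonate arm had all 6 genes below 0 (median log2 fold change −0.37), and 2 passed the FDR. Hmgcs1 (chr13:119690379-119708260, plus strand), the gene whose promoter holds the sterol regulatory core, was at 80.8, 76.5, 66.0 and 68.1 CPM in control replicates 1 to 4 and at 52.9, 55.1, 60.2, 58.4 and 49.9 CPM in CUS replicates 1 to 5. Every CUS mouse was below every control mouse, and the means were 72.9 ± 6.95 CPM in control mice (SD, n = 4) and 55.3 ± 4.14 CPM in CUS mice (SD, n = 5). The fitted fall was 24.1% (15.9 to 31.5% over ±2 SE, log2 fold change −0.40, SE 0.074, edgeR FDR 0.0162).

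Idi1 (chr13:8885501-8892451, plus strand) encodes the isomerase that sets the balance of the isoprenoid building blocks. It was at 8.68, 8.56, 4.86 and 7.20 CPM in control replicates 1 to 4 and at 4.37, 5.13, 4.14, 4.70 and 4.99 CPM in CUS replicates 1 to 5. CUS mice were within a narrow span while control mice were spread, and control replicate 3 fell inside the range of the CUS mice. Idi1 had the lowest log2 fold change of the 32 genes, −0.65 (SE 0.15, edgeR FDR 0.0399), on 123 to 254 reads per mouse. It kept an FDR under 0.05 in 2 of the 9 fits that left out a mouse.

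The other 4 genes of the arm did not pass. The mevalonate kinase gene Mvk had no overlap between groups (7.17 to 8.55 CPM in control, 5.00 to 6.63 CPM in CUS mice) and a log2 fold change of −0.40 (SE 0.10, FDR 0.0564). Pmvk and Mvd, which carry out the next phosphorylation and the decarboxylation, had log2 fold changes of −0.24 (FDR 0.100) and −0.34 (FDR 0.133). Fdps, which makes farnesyl diphosphate, was at −0.20 (FDR 0.108). It overlaps 2 annotated genes on its own strand, so its reads could be shared with them.

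From squalene to cholesterol all 8 genes were below 0, and 3 passed. Cyp51 (chr5:4081145-4104746, minus strand), the cytochrome P450 that starts the demethylation of lanosterol, was at 61.8, 53.6, 45.9 and 53.8 CPM in control replicates 1 to 4 and at 38.3, 41.0, 41.9, 41.6 and 40.1 CPM in CUS replicates 1 to 5. No CUS mouse reached the lowest control mouse. Akap9 overlaps the gene on the other strand. The fitted fall was 24.5% (16.3 to 31.9% over ±2 SE, log2 fold change −0.41, SE 0.074, edgeR FDR 0.0159).

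Msmo1 (chr8:64718139-64733792, minus strand), the methylsterol monooxygenase of the steps after Cyp51, was at 38.4, 40.9, 34.1 and 41.9 CPM in control replicates 1 to 4 and at 29.9, 25.2, 32.2, 29.2 and 27.4 CPM in CUS replicates 1 to 5. The groups did not overlap, with means of 38.8 ± 3.50 CPM in control mice (SD, n = 4) and 28.8 ± 2.64 CPM in CUS mice (SD, n = 5). The fitted fall was 25.9% (17.3 to 33.7% over ±2 SE, log2 fold change −0.43, SE 0.080, edgeR FDR 0.0159).

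Sqle (chr15:59315077-59331192, plus strand) encodes squalene epoxidase, a rate-controlling step after mevalonate. It was at 26.1, 30.0, 22.9 and 28.5 CPM in control replicates 1 to 4 and at 19.6, 20.6, 20.8, 21.8 and 20.1 CPM in CUS replicates 1 to 5. The groups did not overlap, although control replicate 3 came close to CUS replicate 4. The fitted fall was 23.4% (log2 fold change −0.39, SE 0.076, edgeR FDR 0.0208).

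The other 5 genes of these steps had smaller differences, with log2 fold changes between −0.17 and −0.095 and FDR between 0.151 and 0.396. They are Fdft1, which joins farnesyl units to squalene, the cyclase gene Lss, the dehydrogenase gene Nsdhl, and Sc5d and Dhcr7, which act near the end of the pathway. Sc5d had the smallest difference (−0.095, SE 0.061) and Fdft1 the largest of the 5 (−0.17, SE 0.081).

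None of the 4 genes of acetyl-CoA supply and fatty acid synthesis passed the FDR. Fasn (chr11:120805846-120824547, minus strand), which encodes fatty acid synthase and had the smallest p of these 4, was at 58.5, 73.2, 90.5 and 71.8 CPM in control replicates 1 to 4 and at 63.2, 60.3, 65.4, 62.3 and 68.2 CPM in CUS replicates 1 to 5. Control replicates 2 to 4 were above all CUS mice and control replicate 1 was below them. The log2 fold change was −0.20 (SE 0.097, edgeR FDR 0.248). Acly, the enzyme that makes cytosolic acetyl-CoA from citrate, and the acetyl-CoA carboxylase genes Acaca and Acacb had log2 fold changes of −0.11, −0.033 and 0.13, with FDR of 0.409, 0.816 and 0.551.

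Of the 5 desaturases 1 passed, and 4 were below 0. Fads2 (chr19:10064164-10101503, minus strand) encodes the desaturase that starts the conversion of essential fatty acids to long polyunsaturated ones. It was at 28.4, 32.6, 36.0 and 31.6 CPM in control replicates 1 to 4 and at 25.2, 23.9, 27.5, 24.3 and 25.8 CPM in CUS replicates 1 to 5. The groups did not overlap, with control replicate 1 nearest to the CUS mice. The fitted fall was 21.2% (12.9 to 28.6% over ±2 SE, log2 fold change −0.34, SE 0.072, edgeR FDR 0.0258).

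Fads1, Fads2 and Fads3 lie beside each other on chromosome 19, with 4492 bases between Fads3 and Fads2 and 81384 between Fads2 and Fads1. Fads1, which acts after Fads2 in the same conversion, had a log2 fold change of −0.089 (SE 0.071, FDR 0.503) and Fads3 one of 0.089 (SE 0.073, FDR 0.512). The differences between the 3 genes were not tested. The stearoyl-CoA desaturase genes Scd1 and Scd2, which make monounsaturated fatty acids and lie 87586 bases apart on the same chromosome, had log2 fold changes of −0.51 (SE 0.16, FDR 0.0859) and −0.27 (SE 0.079, FDR 0.0751). Scd1 ranged from 10.99 to 20.5 CPM in control mice and from 9.01 to 12.8 CPM in CUS mice. Scd1 and Scd2 are close paralogs, and uniquely mapped reads were counted.

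The 6 elongases split evenly around 0, and 1 of them passed the FDR. Elovl5 (chr9:77917364-77984519, plus strand), which lengthens polyunsaturated fatty acids, was at 43.0, 45.4, 41.4 and 49.2 CPM in control replicates 1 to 4 and at 31.7, 32.03, 32.5, 30.4 and 31.2 CPM in CUS replicates 1 to 5. Its groups were far apart compared with the spread in either, with means of 44.8 ± 3.40 CPM in control mice (SD, n = 4) and 31.5 ± 0.800 CPM in CUS mice (SD, n = 5). The fitted fall was 29.5% (23.5 to 35.1% over ±2 SE, log2 fold change −0.51, SE 0.059, edgeR FDR 0.00251), and Elovl5 passed the FDR under all 15 alternatives, with log2 fold changes of −0.55 to −0.45. Elovl6 and Elovl7, which act on saturated chains, had log2 fold changes of −0.16 (FDR 0.188) and −0.26 (FDR 0.111). Elovl1, Elovl2 and Elovl4, which make very long chains, were at 0.083, 0.13 and 0.098, with FDR of 0.709, 0.353 and 0.433.

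A list of 36 other genes of the pathway, its control and sterol transport was read from the same fit. Elovl3 did not pass the filter on low counts. Of the 35 tested, 2 were lower and 0 higher at an FDR under 0.05, against 2.13% and 1.16% of all genes. The median log2 fold change was −0.00012, with 18 below 0. Abca1, which exports cholesterol from cells, had means of 79.4 ± 4.32 CPM in control and 62.5 ± 4.80 CPM in CUS mice (SD, n = 4 and 5), with a log2 fold change of −0.35 (SE 0.065, edgeR FDR 0.0162). Acsl3, which activates long-chain fatty acids, went from 149 ± 13.1 to 118 ± 8.20 CPM (log2 fold change −0.33, SE 0.070, edgeR FDR 0.0269). In both genes, and in 5 of the 35 in all, every CUS mouse was below every control mouse. In 2 of the 35 every CUS mouse was above. Over all genes 4.7% were lower and 4.06% higher without overlap. Without CUS replicate 4, or without CUS replicate 5, 0 of the 35 passed, and 1 passed without control replicate 2, control replicate 4 or CUS replicate 1. Scap, the SREBP escort, was at 0.0041 and its retention partner Insig2 at −0.053, neither past the FDR (0.982 and 0.626).

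Markers of cell types were measured in the same bulk libraries, since a lower level in a tissue can come from fewer cells of a type or from less RNA per cell, which bulk RNA cannot tell apart. All 8 astrocyte markers were below 0 and 2 passed the FDR: the connexin gene Gja1 (log2 fold change −0.56) and the water channel gene Aqp4 (−0.69). The summed astrocyte level was 2230 to 2680 CPM in control and 2045 to 2417 CPM in CUS mice (exact permutation test, two-sided p = 0.143, 0.186 adjusted over 13 lists). All 9 oligodendrocyte markers were below 0 and 1 passed (St18, −0.73), with sums of 227, 335, 475 and 516 CPM in control replicates 1 to 4 and 218 to 288 CPM in CUS mice (exact p = 0.0794, 0.181 adjusted). None of the markers of these 2 lists was at 0. Control replicates 3 and 4 thus had the highest oligodendrocyte sums, and also the highest share of mitochondrial reads (0.328% and 0.259%, against 0.102 to 0.197% in the other 7 mice). In a fit without these 2 control mice, chosen after their marker sums had been seen, 8 of the 32 genes were lower and 0 higher, among them the same 7, while 3.69% of all genes were lower and 3.45% higher. That fit keeps only 2 control mice. Control replicate 3 was the lowest control mouse in Hmgcs1, Idi1, Sqle, Cyp51, Msmo1 and Elovl5, and the highest in Fads2. Leaving out both mice moved the log2 fold change to −0.51 in Hmgcs1, −0.89 in Idi1 and −0.27 in Fads2. Passing the FDR in that fit therefore does not bear on the marker genes. The part of the marker genes in the result was not tested.

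Over the 13 marker lists no sum passed an adjusted p of 0.05. The lowest p that 4 against 5 mice allow in this two-sided exact permutation test is 0.0159, which was reached by the OPC list (1125 to 1367 CPM in control, 1427 to 1576 CPM in CUS mice) and the striatal list (651 to 1042 and 1139 to 1377 CPM), each 0.103 after adjustment. Both sums were carried by genes that neurons of the cortex also express, Tnr (0.54) and Pde10a (0.61), while the median log2 fold change of the lists went the other way (−0.090 and −0.83). The newly formed oligodendrocyte list had 5 of 5 genes below 0 (168 to 177 and 153 to 170.0 CPM, exact p = 0.0317, 0.138 adjusted). All 6 excitatory markers were above 0, with sums of 1313 to 1931 CPM in control and 1695 to 1804 CPM in CUS mice (exact p = 0.0952, 0.181 adjusted). Neurod6, a transcription factor gene of excitatory neurons, was the 1 of the 6 that passed the FDR, as higher (log2 fold change 0.46, SE 0.078, FDR 0.0119). The other 7 lists (layer 2/3 excitatory, inhibitory, microglia, endothelial, vascular mural, fibroblast and choroid plexus) had adjusted p of 0.181 to 0.619.

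**Figure D3:**
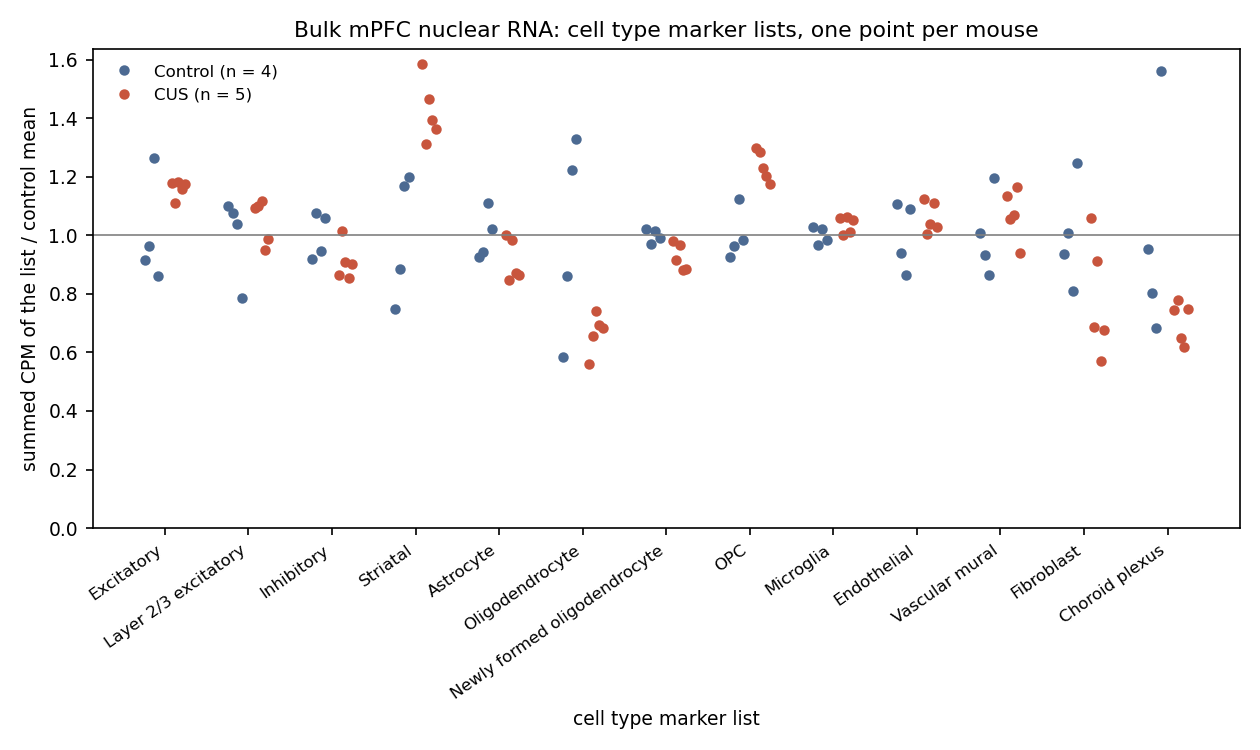
Summed bulk CPM of each list of cell type markers in each mouse, divided by the mean of the 4 control mice (ratio, no unit). Points are mice. The oligodendrocyte sums of control replicates 3 and 4 (475 and 516 CPM) lie above all other mice, and the astrocyte sums of the groups overlap.

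The sNucDrop-seq nuclei show which cells of the neocortex carried these transcripts. Of 40000 barcodes in the tables of 8 mice, 26698 nuclei were kept (1935 to 4235 per mouse, with a median of 1804 to 2441 UMIs per nucleus), and any 2 mice shared at most 4 barcodes. The filters on genes and mitochondrial UMIs left 31486 barcodes, and the doublet score, recomputed here, removed 4788 of them. The number of nuclei kept was below the one the study states. Clusters were named from markers, and the 32 genes were kept out of the variable genes used for clustering. Astrocyte-like nuclei (1185) were enriched for 8 of 8 astrocyte markers, oligodendrocyte-like nuclei (653) for 9 of 9 of theirs, and OPC-like nuclei (441) for 6 of 6. Microglia-like nuclei (237) held 8 of 8 microglia markers, but their summed level of excitatory markers was 68.2% of that in excitatory-like nuclei, so values in that class are not those of microglia alone. The other classes also carried each other's markers, given here as a percentage of their summed level in their own class. Excitatory markers were at 18.6% in astrocyte-like, 25.7% in oligodendrocyte-like, 17.4% in OPC-like, 20.8% in inhibitory-like and 35.7% in striatal-like nuclei. Inhibitory markers were at 10.2% in astrocyte-like, 20.8% in oligodendrocyte-like and 23.5% in OPC-like nuclei. Astrocyte markers were at 2.82% in excitatory-like, 5.47% in oligodendrocyte-like and 17.7% in OPC-like nuclei. The part of this signal in the levels by class was not tested.

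Levels by class are CPM of all UMIs summed over the nuclei of a class in a mouse, averaged over 8 mice, and are given as a description with no test. The ranking covers 7 classes. Newly formed oligodendrocyte-like (77), endothelial-like (59), fibroblast-like (75) and unnamed nuclei (1789) were not ranked. Among the 7, 21 of the 32 genes had their highest mean in astrocyte-like nuclei, 8 in oligodendrocyte-like nuclei, 2 in OPC-like nuclei (Idi1 and Acly) and 1 in inhibitory-like nuclei (Elovl4). None was highest in excitatory-like, striatal-like or microglia-like nuclei. The mean in astrocyte-like nuclei was above that in excitatory-like nuclei for 30 of 32 genes, and for 20 of them in each of the 8 mice. For 13 genes the first class was above the second in all 8 mice, 9 in astrocyte-like and 4 in oligodendrocyte-like nuclei. For the other 19 the order of the first 2 classes differed between mice.

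Among the sterol genes, Msmo1 was at 523 ± 98.5 CPM in astrocyte-like nuclei (SD, n = 8 mice), 158 ± 66.5 in oligodendrocyte-like and 54.0 ± 5.57 in excitatory-like nuclei, with astrocyte-like above oligodendrocyte-like nuclei in all 8 mice. Dhcr7 was likewise highest in astrocyte-like nuclei in every mouse (62.2 ± 16.3 CPM, against 13.3 ± 2.01 in excitatory-like nuclei). Hmgcs1 and Cyp51, which fell in bulk, had close means in astrocyte-like and oligodendrocyte-like nuclei (157 ± 19.5 and 141 ± 25.8 CPM for Hmgcs1, 114 ± 39.4 and 85.9 ± 29.7 CPM for Cyp51), and the order of these 2 classes differed between mice. Sqle was at 67.8 ± 24.5 CPM in astrocyte-like and 24.2 ± 2.73 in excitatory-like nuclei. Idi1 was too sparse to place, with 85 UMIs in all nuclei and 2 in its first class.

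Among the regulators, Srebf1 was at 128 ± 47.7 CPM in astrocyte-like nuclei and 3.56 ± 0.810 in excitatory-like nuclei, a level there that is no higher, relative to astrocyte-like nuclei, than that of the astrocyte markers. Srebf2 was spread more evenly (129 ± 20.2 and 68.1 ± 9.77 CPM), and Insig1 was at 87.5 ± 26.2 and 15.1 ± 3.95 CPM. All 3 were highest in astrocyte-like nuclei in all 8 mice.

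The enzymes of fatty acid desaturation and elongation were divided between the glial classes. Fads2 and Fads1 were highest in astrocyte-like nuclei in all 8 mice (121 ± 37.0 and 159.9 ± 36.7 CPM, against 5.58 ± 2.30 and 26.1 ± 2.48 in excitatory-like nuclei), as were Elovl5 (142 ± 21.0 against 10.4 ± 1.51) and Elovl2 (67.3 ± 28.9 against 6.28 ± 1.51). Scd2, Elovl1, Elovl7 and Acaca were highest in oligodendrocyte-like nuclei in all 8 mice. Scd2 was at 1485 ± 556 CPM there, 768 ± 165 in astrocyte-like and 107 ± 18.6 in excitatory-like nuclei. Elovl7 was at 274 ± 67.4 CPM in oligodendrocyte-like and 5.84 ± 5.69 in astrocyte-like nuclei. Elovl4 was at 81.3 ± 13.9 CPM in inhibitory-like nuclei, above the next class in 7 of 8 mice. Of the 7 genes called in bulk, Msmo1, Fads2 and Elovl5 were thus highest in astrocyte-like nuclei in every mouse.

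**Figure D4:**
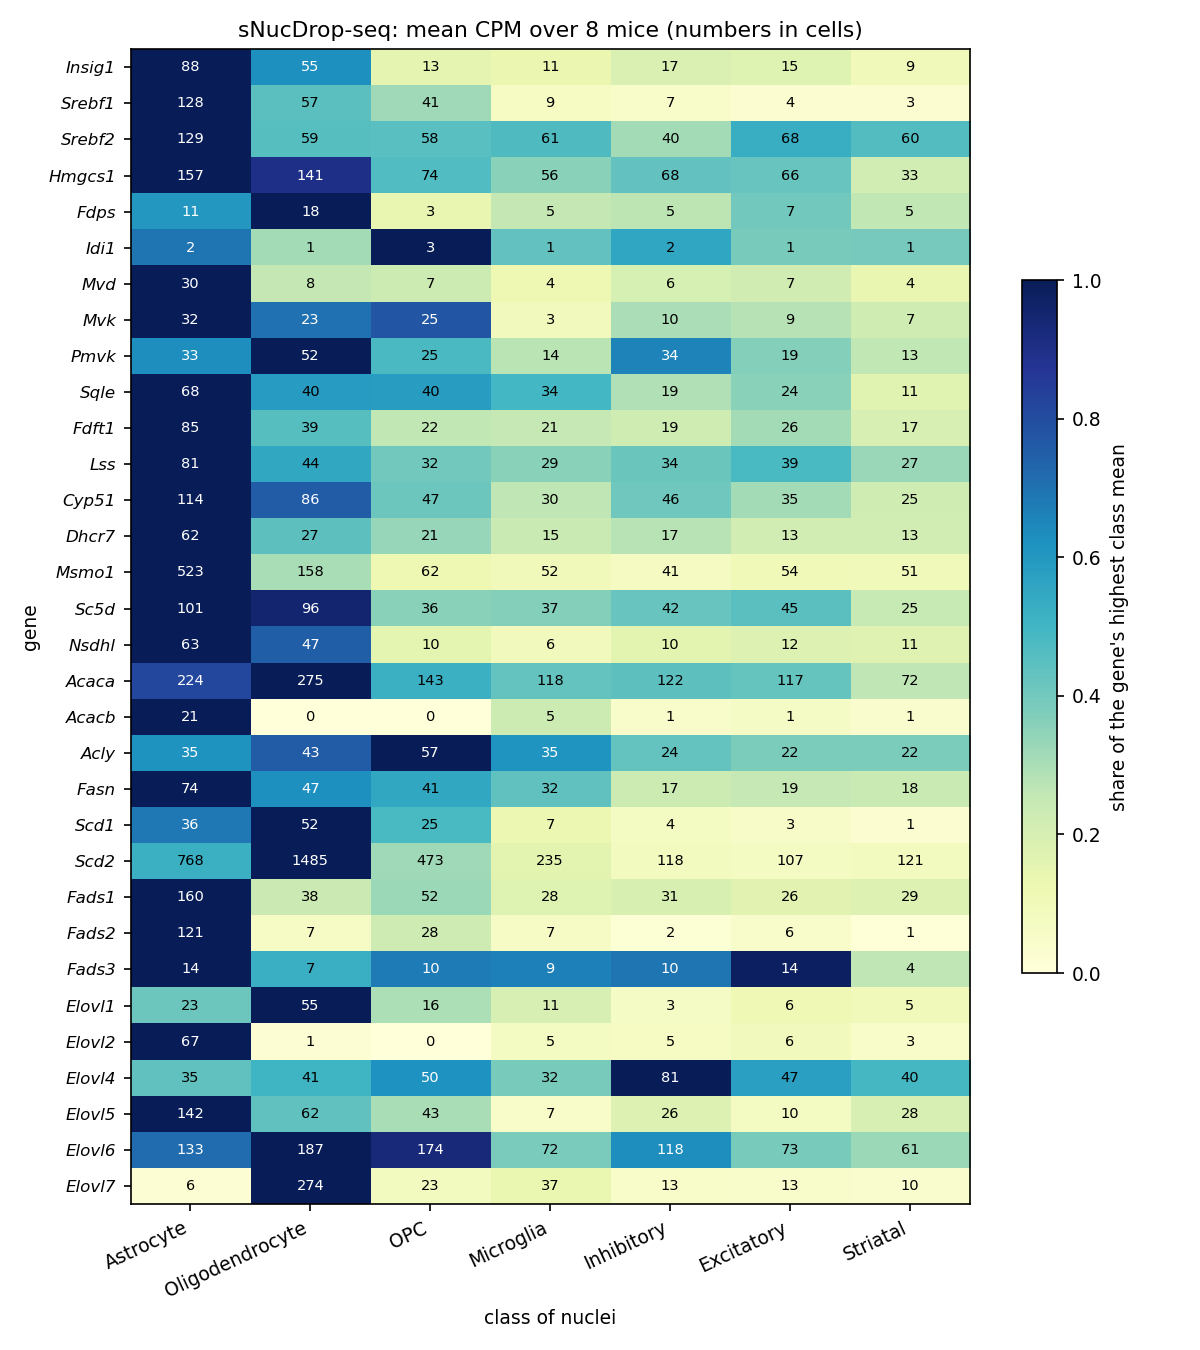
Mean level of each of the 32 genes in 7 classes of nuclei. Numbers are CPM of all UMIs of the class, averaged over 8 mice, and color is the share of the gene's highest class mean. 21 rows are darkest in the astrocyte column and 8 in the oligodendrocyte column, and no row is darkest in the excitatory, striatal or microglia column.

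CUS and control mice were then compared in the nuclei, with UMIs summed per mouse, so that the mouse was the replicate. CPM in these comparisons are TMM-scaled over the tested genes only, so they are higher than the levels by class given above. The Methods describe 2 batches, each with 2 control and 2 CUS mice, and a batch term in the model, but the labels do not say which mouse was in which batch. Deviations from the group means over all genes were used to divide the mice into 2 sets of 2 control and 2 CUS mice. Of all such divisions, the one with the highest mean correlation within sets minus that across sets was kept. It set control replicates 1 and 4 with CUS replicates 1 and 2, and control replicates 2 and 3 with CUS replicates 3 and 4. Correlations were 0.063 to 0.53 within these sets and −0.59 to 0.062 across them. The choice itself favours such a separation, so these ranges do not test the sets. A fit with a term for the inferred sets, chosen after seeing the data, is given where it changed a call, and whether the sets are the batches is not known. Because the sets were picked from the same counts that were then tested, the FDR values of these fits cannot be taken at face value. They are given as a description. With all nuclei of a mouse summed, 9 of the 32 genes had enough UMIs to be tested, and none passed an FDR of 0.2 (edgeR's quasi-likelihood test), against 0.0% of 5018 genes called lower and 0.0199% called higher. 6 of the 9 were above 0, and the log2 fold changes ran from −0.089 to 0.22 with SE of 0.080 to 0.16. Unadjusted p was under 0.05 for 1 of the 9 and for 8.01% of all genes. The member was Srebf2, which was at 70.7, 72.9, 74.3 and 71.7 CPM in control replicates 1 to 4 and at 90.8, 77.0, 77.6 and 89.9 CPM in CUS replicates 1 to 4. Every CUS mouse was above every control mouse, as in 101 of the 5018 genes tested. The log2 fold change was 0.21 (SE 0.090, FDR 0.596). The 3 genes called in bulk that could be tested here had log2 fold changes of −0.0021 (Hmgcs1), −0.089 (Cyp51) and 0.22 (Msmo1). The likelihood ratio test and DESeq2 also called 0. Without CUS replicate 2, Srebf2 passed as higher, as did 9.7% of all genes tested. With the term for the inferred sets 0 of the 9 passed by either edgeR test.

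Astrocyte-like nuclei allowed the most members to be tested in a single class, 16 of 32. None passed an FDR of 0.2 without a batch term, and 0.148% of the 2695 genes tested were called higher and 0.0% lower. 15 of the 16 had log2 fold changes above 0, with a median of 0.31, against −0.0020 over all genes tested and 1338 of those 2695 genes above 0. Genes were tested if their UMIs summed over both groups exceeded 118.5. A sparse gene could thus enter through the group in which it was higher, which limits the reading of these counts. Unadjusted p was under 0.05 for 4 (Srebf1, Fdft1, Msmo1 and Scd2), all above 0, and for 5.83% of all genes tested, and the likelihood ratio test and DESeq2 also called 0. In 3 every CUS mouse was above every control mouse, which held for 1.78% of genes in this class. The number above 0 was lowest without CUS replicate 4, at 10 of the 14 genes that could then be tested, with a median of 0.21, and was 13 of 16 with at least 1000 genes per nucleus.

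Msmo1 was at 684, 503, 598 and 633 CPM in control replicates 1 to 4 and at 861, 818, 923 and 758 CPM in CUS replicates 1 to 4 in astrocyte-like nuclei. All CUS mice were above all control mice, with a log2 fold change of 0.49 (0.14 to 0.85 over ±2 SE, edgeR FDR 0.481). Scd2 was at 984, 896, 715 and 836 CPM in control replicates 1 to 4 and at 1316, 1165, 1279 and 1290 CPM in CUS replicates 1 to 4. Its groups did not overlap either, and the log2 fold change was 0.57 (0.24 to 0.91 over ±2 SE, edgeR FDR 0.388). With the term for the inferred sets, which were picked from the same counts, Scd2 came under the FDR of 0.2 as higher (edgeR FDR 0.196, and 0.0847 by the likelihood ratio test). It was the single member to do so. Of the 2695 genes tested, 7 (0.26%) were then higher and 0 lower by the quasi-likelihood test, and 10 (0.371%) and 1 by the likelihood ratio test. Fdft1, on 133 UMIs in all and so close to the minimum of 118.5, had a log2 fold change of 0.68 (0.087 to 1.28 over ±2 SE, edgeR FDR 0.711). The astrocyte marker sum within this class was 21781 to 23847 CPM in control and 21162 to 24546 CPM in CUS mice, and the share of nuclei in the class was 3.09 to 6.56% in control and 3.30 to 8.44% in CUS mice (exact permutation test, two-sided p = 0.657).

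For the 5 genes called lower in bulk that could be tested in astrocyte-like nuclei, both values can be set side by side. Elovl5 had a log2 fold change of −0.51 (SE 0.059) in bulk and 0.37 (SE 0.23) in astrocyte-like nuclei. Hmgcs1 had −0.40 (SE 0.074) and 0.19 (SE 0.23), and Cyp51 −0.41 (SE 0.074) and 0.28 (SE 0.27). Msmo1 had −0.43 (SE 0.080) and 0.49 (SE 0.18), and Fads2 −0.34 (SE 0.072) and 0.12 (SE 0.26). The bulk values are of whole tissue and the others of a single class of nuclei. Values with all nuclei summed are given above for Hmgcs1, Cyp51 and Msmo1. The data sets also differ in dissection, age, behavioural testing, time after stress and library method. They were not compared by a test, and these differences cannot be told apart.

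**Figure D5:**
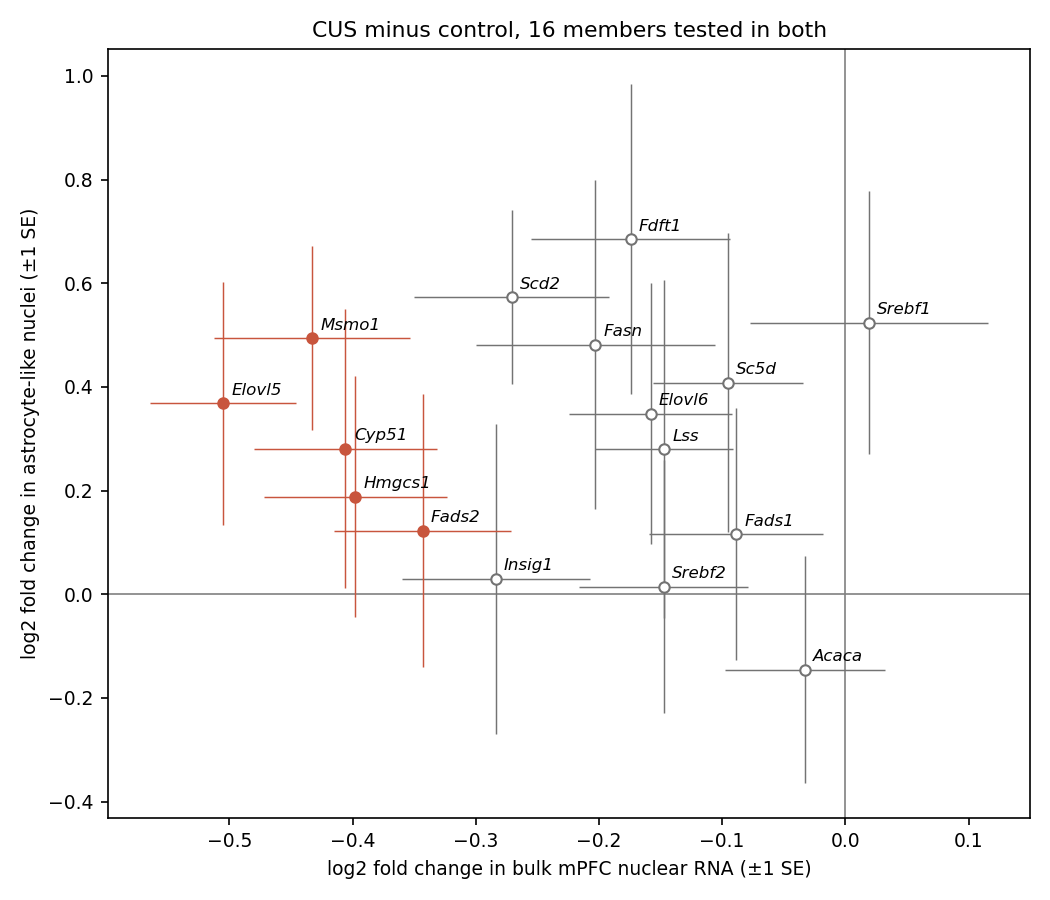
Log2 fold change (CUS minus control) of the 16 genes tested in both data sets, in bulk mPFC nuclear RNA (x axis) and in astrocyte-like nuclei (y axis), with bars of ±1 SE. 15 points lie above 0 on the y axis, and the 5 genes past the FDR in bulk lie at the left and above 0.

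No gene of the set passed an FDR of 0.2 in any of the other 7 classes, by this test, the likelihood ratio test or DESeq2 without a batch term, and unadjusted p was under 0.05 for 1 gene each in oligodendrocyte-like, excitatory-like and microglia-like nuclei and 2 in layer 2/3 excitatory-like nuclei. Over all genes tested that level was reached by 3.53%, 9.38%, 3.75% and 11.9% in these classes. In oligodendrocyte-like nuclei 7 of 9 tested genes were above 0 (0.0% of 2805 genes called), and Sc5d had the largest value (1.02, SE 0.38, FDR 0.999). In 1 of the 9 every CUS mouse was above every control mouse, as in 43 of the 2805 genes. With at least 1000 genes per nucleus 1 of 8 were above 0, and Sc5d was at −0.33. In excitatory-like nuclei 6 of 9 were above 0 (0.0377% called), with Srebf2 at 0.26 (SE 0.098, FDR 0.512). All CUS mice were above all control mice in Srebf2, as in 120 of the 5310 genes tested. In layer 2/3 excitatory-like nuclei, which are part of the excitatory-like class, 4 of 6 were above 0 (0.996% called), with Scd2 at 0.37 (FDR 0.3996) and Srebf2 at 0.39 (FDR 0.357). The 2 genes below 0 there were Acaca, with every CUS mouse below every control mouse (−0.26, SE 0.13, FDR 0.429), and Hmgcs1 (−0.15, SE 0.17, FDR 0.742). Of the 5423 genes tested in this class, 151 were lower without overlap. In 1 of the 6 members every CUS mouse was above every control mouse, as in 158 of all genes tested. Without CUS replicate 2, Srebf2 and Scd2 passed as higher in excitatory-like and Scd2 in layer 2/3 excitatory-like nuclei, in fits that called 8.83% and 7.53% of all genes higher. With the term for the inferred sets, Srebf2 passed as higher in both by the likelihood ratio test (FDR 0.167 and 0.165), while 166 genes were lower and 193 (3.63%) higher in the first class and 214 and 277 (5.11%) in the second, and no member passed by the quasi-likelihood test.

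In inhibitory-like nuclei 5 of 6 tested genes were above 0 (0.0% of genes called), in striatal-like nuclei 3 of 5 (0.0% called) and in OPC-like nuclei 1 of 3 (0.0382% called). These counts rested on single mice: 2 of 5 were above 0 in inhibitory-like nuclei without control replicate 3 and 3 of 6 without control replicate 1, 2 of 5 in striatal-like nuclei without control replicate 2, and 2 of 3 in OPC-like nuclei without control replicate 1 or CUS replicate 4. Processing moved them too. Striatal-like nuclei had 2 of 5 above 0 with at least 1000 genes per nucleus, and OPC-like nuclei had 2 of 3 without the doublet filter. In 1 of the 6 genes tested in inhibitory-like nuclei every CUS mouse was above every control mouse, as in 64 of 4768 genes. In microglia-like nuclei 4 of 6 tested genes were below 0 (0.0397% called), with Msmo1 at −1.77 (SE 0.71, FDR 0.996), and the class holds 237 nuclei and the excitatory markers given above. The number above 0 was 3 of 5 without control replicate 3, and the median log2 fold change went from −0.26 to 0.18. It was 0 of 6 without control replicate 4 (median −0.33) and 0 of 6 without the doublet filter (median −0.47). The share of nuclei passed an adjusted p of 0.05 in none of 12 classes, and the lowest p that 4 against 4 mice allow in the two-sided exact permutation test is 0.0286.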

How the data were processed

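The 32 genes, the other lists and the tests were chosen with earlier results of these data known. Per the labels and the Methods, RNA of mPFC nuclei was sequenced with a stranded, ribosomal RNA-depleted library and aligned to mm10 with STAR, and the authors counted uniquely mapped reads per gene with in-house programs. The annotation, the use of introns and the use of strand in that counting are not given in the sources used here, so reads of overlapping genes cannot be assigned: GENCODE vM21 genes overlap Hmgcs1, Idi1 and Cyp51 on the opposite strand. The deposited sNucDrop-seq tables hold UMI counts per gene and barcode (5000 barcodes per mouse), from exonic and intronic reads on the strand of the gene. Both kinds of file hold raw counts without normalization.

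Bulk depth was 26188825 to 30525015 reads per mouse. The Methods name no removal of PCR copies from the bulk reads, so read counts may overstate the molecules seen. The test was that of edgeR 4.0.16 in R 4.3.3 (glmQLFit, glmQLFTest, TMM factors, filterByExpr) at an FDR of 0.05, and CPM are TMM-scaled over the tested genes. SE is the log2 fold change divided by the square root of F. A nucleus had to show between 600 and 5000 genes, with mitochondrial UMIs below 5%, and its Scrublet doublet score (scanpy 1.11.5, expected rate 0.1) could not exceed 0.2. Nuclei were clustered with Seurat 5.3.0 on 2000 variable genes and 50 principal components at resolution 1. A cluster was named with 3 or more markers enriched 1.5-fold over the other nuclei, 2 of them (1 for inhibitory) among its 10 leading genes. Excitatory-like clusters needed 4 of 6 markers enriched 2-fold over the named non-excitatory clusters, with the sum of Gad1 and Gad2 below 0.5 times theirs. Markers of another list also led the layer 2/3 excitatory-like cluster (Lamp5) and the endothelial-like one (Rgs5 and Vtn). Classes over 200 nuclei were tested at an FDR of 0.2, on genes with more UMIs in all than 10% of the number of nuclei. Per the Methods, the single-nucleus libraries were made in 2 batches of 2 control and 2 CUS mice with a strong batch effect, which the study modelled. The labels do not give each mouse's batch, so the reported tests have no batch term, and a term for 2 sets inferred from the counts was an added alternative.

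Named with values in every mouse are the genes past the FDR and the gene of each role with the smallest bulk p. Of the 36 other pathway genes those past the FDR are named, with means. Other genes were named after their values were seen. Exact permutation tests used scipy 1.17.1. Scripts were tested on simulated data. The alternatives were the likelihood ratio test, DESeq2 1.42.0, no TMM factors, no filter, a replicate block, each mouse left out, and for nuclei no doublet filter, 1000 genes as the minimum and resolutions of 0.6 and 1.5.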

Additional observations from a re-analysis of the deposited data

Results flagged for a closer look

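In 114 groups of 4 or 5 mice (bulk CPM of the 32 genes, marker sums and shares of nuclei), a mouse stood far from the others of its group 6 times, where chance gives about 1 in 20 groups. Lowest, highest and next refer here to the mice of the same group only. Among bulk control mice, replicate 3 was lowest in Fdps (13.7 CPM, next 15.1) and highest in Acaca (206 CPM, next 185), and replicate 4 was lowest in Fads3 (21.0 CPM, next 25.3). In the nuclei, among control mice, the share of inhibitory-like nuclei was highest in replicate 1 (11.6%, next 10.0%) and that of endothelial-like nuclei in replicate 4 (0.310%, next 0.0712%). CUS replicate 1 had a higher endothelial-like share (1.02%). Among CUS mice, the share of astrocyte-like nuclei was highest in replicate 1 (8.44%, next 4.00%).

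Msmo1 had log2 fold changes of opposite sign in the 2 data sets. Every CUS mouse was below every control mouse in bulk mPFC (log2 fold change −0.43) and above every control mouse in astrocyte-like nuclei of the neocortex (0.49, not past the FDR there). The difference was not tested. Bulk tissue mixes all cell types while the other value is of a single class. Dissection, age, behavioural testing, time after stress and library method also differ between the data sets.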

How the results depend on the processing

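No called gene changed direction. Of the 32 genes in bulk, the likelihood ratio test and DESeq2 called 11 lower each, and leaving out a mouse gave 1 to 9, with 0 higher throughout. All 7 called genes stayed below 0 under the 15 alternatives. Elovl5 passed in 15, Hmgcs1, Sqle, Cyp51 and Msmo1 in 12, Fads2 in 11 and Idi1 in 7. Over all genes, lower and higher calls were 796 and 534 by the likelihood ratio test, 859 and 554 by DESeq2 and 619 and 203 without TMM factors. Of the other pathway genes, the likelihood ratio test and DESeq2 called 4 lower and 1 higher each, and leaving out a mouse gave 0 to 3 lower and 0 to 1 higher. In the nuclei, leaving out a mouse gave 0 to 1 of the 32 higher in all nuclei, 0 to 2 in excitatory-like and 0 to 1 in layer 2/3 excitatory-like nuclei, the calls coming without CUS replicate 2. Without the doublet filter, 2 genes were highest in microglia-like nuclei (Idi1 and Fads3) and Elovl6 in OPC-like nuclei, and the difference in the share of newly formed oligodendrocyte-like nuclei went from 0.068 to −0.037 percentage points. With at least 1000 genes per nucleus, OPC-like nuclei were too few to be tested and no cluster was named microglia-like. With a term for the inferred sets, 1 of the 32 was higher in astrocyte-like nuclei by either edgeR test and 1 each in excitatory-like and layer 2/3 excitatory-like nuclei by the likelihood ratio test.

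The labels do not say whether the replicate numbers pair mice. In bulk, deviations of same-numbered mice correlated by 0.025 to 0.15 and those of differently numbered mice by −0.15 to 0.11. In the nuclei same-numbered mice correlated by −0.45 to 0.40. Over all pairs of a control and a CUS mouse the correlations in the nuclei ran from −0.59 to 0.53, and the inferred sets were picked from these. With a replicate block, which leaves CUS replicate 5 without a partner, 2 of the 32 genes (Elovl5 and Fads2) and 0 of the other pathway genes were lower in bulk, with 160 lower and 78 higher calls over all genes. In the nuclei the block changed no call of the 32 genes. The fits without control replicates 3 and 4 and with the inferred sets were chosen after seeing the data. Depth limits the nuclei: 23 of the 32 genes had too few UMIs for the test over all nuclei, and 16 in astrocyte-like nuclei.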
